A study of Rattus norvegicus and Ovis aries with 113 samples.

Results

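The genes described here are 10 genes that mark the main neurons of the cerebellar cortex: PCP2, CA8 and CALB1 of Purkinje cells, the secreted cerebellins CBLN1 and CBLN3, and the transcription factors NEUROD1, BARHL1, ZIC1, ZIC2 and ETV1 of granule cells. They were taken by upper-cased symbol, and all 10 were found among the 31304 genes of the sheep table. In the rat table of 38675 genes, 9 were found by symbol and CA8 was found as Car8, its RefSeq synonym.

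The study sequenced messenger RNA from brain and from a reproductive sample of untreated, sexually mature animals, and its title asks which genes link neurological and reproductive functions across mammals. From 5 male sheep (numbered 687, 688, 690, 694 and 699) came cerebellum, basal ganglia, entorhinal, frontal, motor, posterior parietal, prefrontal and visual cortex, hippocampus and pons, 1 library per animal and region, together with sperm, which made 55 libraries. From Sprague Dawley rats came 29 whole brains (15 male, 14 female), 14 ovaries of the females and 15 sperm samples of the males, which the labels describe as harvested seminal fluid, 58 libraries in all. Rat brains were taken whole, so that in rats the cerebellum is one unmeasured share of each library. A library is a piece of tissue with many cell types, and in every comparison below fewer cells of a type and less RNA per cell cannot be told apart.

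Purkinje cells are the output neurons of the cerebellar cortex and granule cells are its very numerous small excitatory neurons, whose parallel fibres form synapses on Purkinje cell dendrites. CBLN1, made by granule cells and released at these synapses, binds neurexins on the parallel fibre and holds the synapse together, and CBLN3 is a cerebellin that assembles with CBLN1. Granule cells arise from the rhombic lip under ATOH1 and then switch on NEUROD1, BARHL1 and ZIC genes, while calcium handling by calbindin (CALB1) and the inositol trisphosphate receptor ITPR1, to which the CA8 protein binds, is a hallmark of Purkinje cells.

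Levels are given as counts per 1000000 (CPM) after scaling by trimmed mean of M values (TMM) factors unless plain CPM, per 1000000 counts of the library total, is named. Library totals ran from 46.7 to 72.4 M (1000000 counts) in sheep brain, 13.7 to 65.1 M in sheep sperm, 38.2 to 119 M in rat brain, 50.5 to 60.3 M in ovary and 13.7 to 65.1 M in rat sperm. Levels are compared within a gene and not between genes, since no gene lengths were used. A gene was called where edgeR's quasi-likelihood test gave a Benjamini-Hochberg adjusted p below 0.05, over all genes tested, and a change of at least 1 log2 unit in either direction. Each tissue has 1 library per animal, so the spread between replicates joins differences between animals with those between the pieces of tissue taken. The main tests did not block for the animals that tissues share. Counts of calls with the animal as a block are given at the end.

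One sequence is shown, that of the promoter of NEUROD1, since basic helix-loop-helix factors such as ATOH1 and NEUROD1 bind E-boxes and NEUROD1 was the member for which the sequence table gave a window that ends at the annotated gene start. It is the stretch before the start of rat Neurod1, on GRCr8 chr3:84770455-84770704 (minus strand, upstream of the gene at chr3:84766483-84770454), from RefSeq, written 5′ to 3′ with the E-box match CANNTG in capitals.
Neurod1 promoter: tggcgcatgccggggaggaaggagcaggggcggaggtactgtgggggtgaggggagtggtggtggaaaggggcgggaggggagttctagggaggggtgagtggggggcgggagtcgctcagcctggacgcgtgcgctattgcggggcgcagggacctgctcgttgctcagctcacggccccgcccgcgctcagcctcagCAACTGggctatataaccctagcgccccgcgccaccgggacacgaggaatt
The match begins 51 bases before the gene start, and CANNTG (its own reverse complement, so both strands are searched at once) occurs in 65.5% of 33469 rat promoter windows, so that its presence here is a description only.

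PCP2, a modulator of G protein signalling found almost exclusively in Purkinje cells and retinal bipolar cells, stood at 105.2, 101.7, 92.8, 76.0 and 103.0 CPM in the cerebellum of sheep 687, 688, 690, 694 and 699, a mean of 95.7 ± 12.0 CPM (SD, n = 5). The 45 libraries of the other 9 regions held 0.419 to 6.72 CPM, and the groups did not overlap. CA8, a carbonic anhydrase relative without enzyme activity, stood at 720.4, 316.1, 511.5, 267.0 and 350.1 CPM in the same 5 cerebella (433 ± 185, SD, n = 5). CALB1, a calcium buffer, stood at 460.7, 197.3, 308.9, 225.4 and 269.9 CPM (292 ± 103, SD, n = 5). CA8 and CALB1 were both highest in sheep 687 and next highest in 690, whereas PCP2 was nearly level over 4 of the 5 animals and lowest in 694.

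CBLN1 stood at 1076, 999.5, 821.6, 1024 and 1072 CPM in the 5 cerebella (998 ± 104, SD, n = 5), and CBLN3 at 806.5, 795.4, 705.8, 796.8 and 800.3 CPM (781 ± 42.3, SD, n = 5). Both cerebellins were lowest in sheep 690. No other library came near these levels, the next highest being 42.1 CPM for CBLN1 and 30.1 CPM for CBLN3, both in the entorhinal cortex of sheep 687.

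Among the transcription factors, NEUROD1, needed for granule cell survival and differentiation, stood at 236.3, 233.6, 215.9, 245.4 and 268.2 CPM in the cerebellum (240 ± 19.1, SD, n = 5). BARHL1, a homeobox factor of rhombic lip neurons, was low and variable at 8.37, 14.7, 9.92, 5.62 and 20.2 CPM (11.8 ± 5.75, SD, n = 5). The zinc finger factor ZIC1 stood at 644.2, 620.2, 551.0, 725.7 and 647.3 CPM (638 ± 62.7, SD, n = 5). Its relative ZIC2 followed the same order of animals at both ends, with 358.5, 299.0, 271.7, 366.5 and 314.6 CPM (322 ± 40.1, SD, n = 5). ETV1, an ETS factor linked to granule cell maturation, stood at 303.4, 292.1, 292.0, 347.5 and 311.5 CPM (309 ± 22.9, SD, n = 5). ZIC1, ZIC2 and ETV1 were all highest in sheep 694 and lowest in 690.

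The members thus differed in how steady they were over the 5 cerebella. The coefficient of variation (SD as a percent of the mean) was 48.9% for BARHL1, 42.7% for CA8 and 35.3% for CALB1. It was 5.41% to 12.54% for the other 7 members. Sheep 690 had the lowest value of 6 members and sheep 687 the highest of 5.

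**Figure D1:**
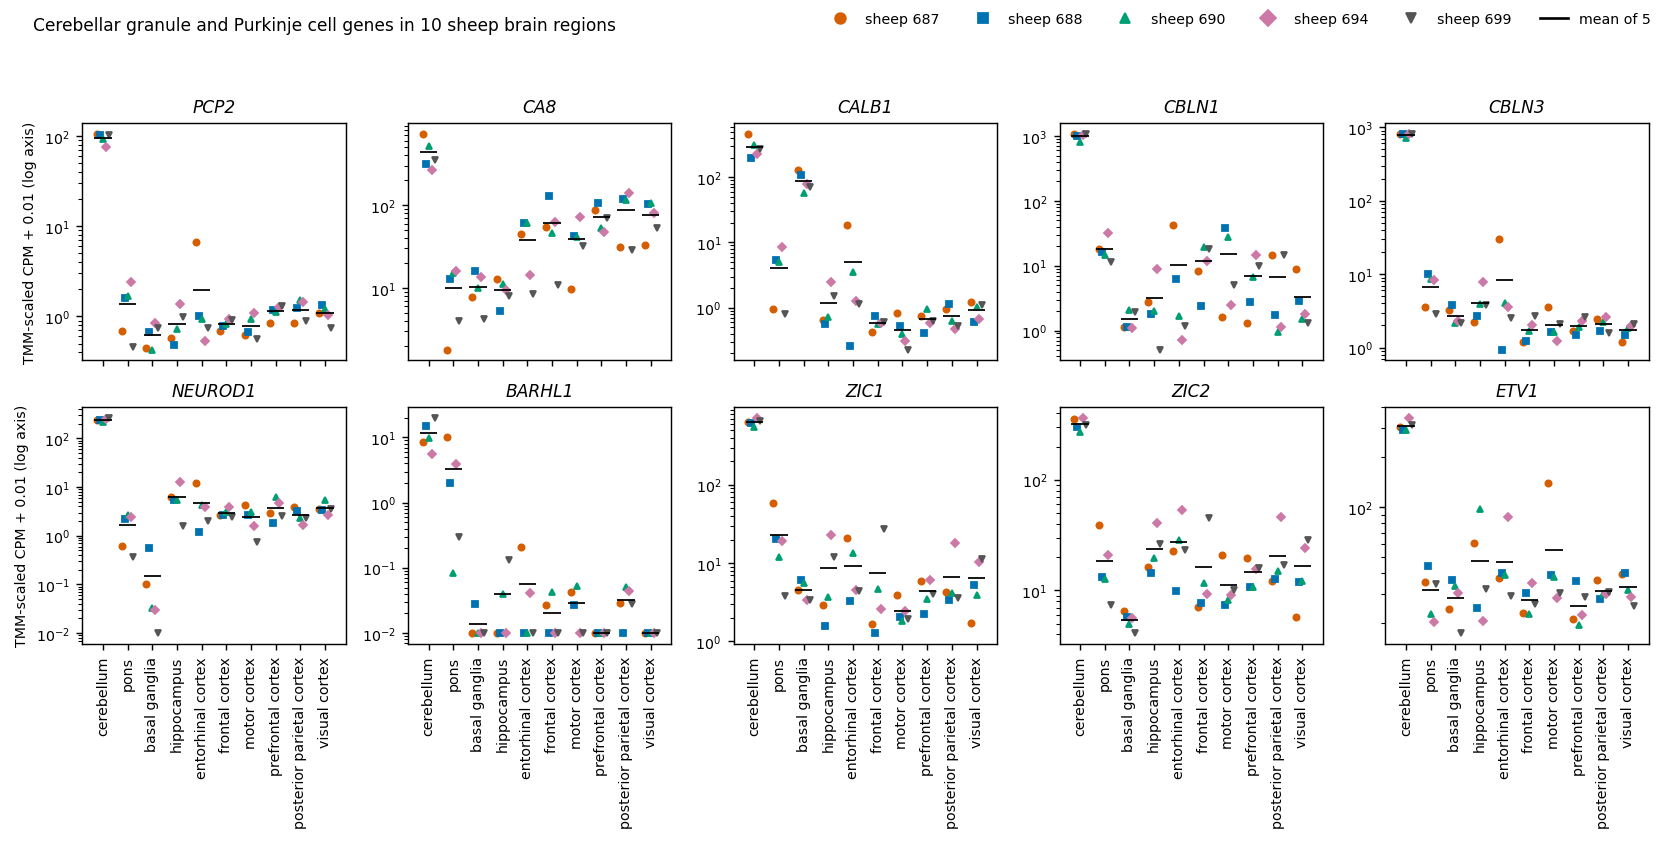
Levels of the 10 genes in 10 brain regions of 5 sheep: each panel is 1 gene, each point 1 library (colour and shape by sheep) and each line the mean of 5, with region on the horizontal axis and TMM-scaled CPM plus 0.01 on a log vertical axis. The cerebellum libraries lie above all others in 9 panels; in the BARHL1 panel the pons of sheep 687, at 10.04 CPM, lies inside the cerebellum range of 5.62 to 20.2 CPM.

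All 10 members were called higher in the cerebellum than the mean of the other 9 regions, where 9.35% of the 21147 genes tested were called higher. The log2 fold changes (edgeR quasi-likelihood test) ran from 3.15 ± 0.20 (SE) for ETV1, with an adjusted p of 3.94e-18, to 9.09 ± 0.47 for BARHL1, with an adjusted p of 1.29e-18. Among the Purkinje cell members the log2 fold change was 6.54 ± 0.21 for PCP2, 7.31 ± 0.30 for CALB1 and 3.73 ± 0.30 for CA8. CBLN1 was higher by 7.23 ± 0.44 and CBLN3 by 8.06 ± 0.24. The median over the 10 members was 6.63, beside -0.04 over all genes tested.

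Against single regions, all 90 combinations of member and region were called higher, where 8.27% of genes were called higher against entorhinal cortex, 8.87% against hippocampus, 9.16% against motor, 9.53% against posterior parietal, 9.68% against frontal, 9.86% against prefrontal and 9.95% against visual cortex, 10.7% against basal ganglia and 11.8% against pons. The smallest differences were CALB1 against basal ganglia, at 1.72 log2 units, and BARHL1 against pons, at 1.86 log2 units with an edgeR adjusted p of 0.0303. The second of these was lost without sheep 688, 690 or 699 (adjusted p of 0.0823 to 0.138), and the first without sheep 690 (adjusted p of 0.0638).

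How far the cerebellum stood apart differed greatly by member. The mean cerebellum level of CBLN3 was 94.8 times that of the next region (entorhinal cortex), that of CBLN1 54.4 times (pons) and that of PCP2 48.4 times (entorhinal cortex). NEUROD1 was at 38.2 times the hippocampus and ZIC1 at 28.0 times the pons. The ratio was 11.7 for ZIC2, 5.62 for ETV1, 5.00 for CA8, 3.62 for BARHL1 and 3.30 for CALB1.

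The lowest cerebellum library was still 23.5 times the highest other library for CBLN3, 19.5 times for CBLN1, 17.0 times for NEUROD1 and 11.3 times for PCP2. That ratio was 2.09 for ETV1 (against the motor cortex of sheep 687), 1.92 for CA8 (posterior parietal cortex of 694) and 1.55 for CALB1 (basal ganglia of 687). BARHL1 was the only member whose ranges overlapped, at a ratio of 0.56. How many of all genes stood apart in this way was not counted, so these ratios describe the members only.

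The further genes of the same cells, from lists of known markers, moved largely in the same direction. These lists and those below were chosen with earlier results of these data known, so their counts are a description only. Of all genes tested, 9.35% were called higher in the cerebellum. Of 15 other granule cell genes tested, 13 were called higher in the cerebellum, with a median log2 fold change of 3.95. The 4 with the greatest fold change were GABRA6, the granule cell GABA receptor subunit (13.12), the homeobox factors EN2 (11.22) and TLX3 (9.32), and the protocadherin relative FAT2 (9.20). GABRA6 also had no count in prefrontal and visual cortex, so the size of its value depends on the prior count. The vesicular glutamate transporter SLC17A7 (0.69) and the adhesion molecule CNTN2 (0.70) were not called, and ATOH1, a gene of granule cell precursors, had too few counts to be tested.

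Of 18 other Purkinje cell genes, 14 were called higher, with a median of 2.25. SKOR2 (9.41), LHX1 (7.11) and LHX5 (5.86), transcriptional regulators of Purkinje cells, had the greatest log2 fold changes. DNER (0.66), RORA (0.99) and ITPKA (-0.02) were among those not called. Markers of other cerebellar cells were called in both directions, 4 of 7 higher, among them EOMES of unipolar brush cells (8.67), PAX2 of inhibitory interneurons (8.34) and the glycine transporter gene SLC6A5 (4.02), and 2 lower.

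Among 20 partners and family members, 11 were called higher and 3 lower, with a median of 1.10. Of all genes tested, 19.5% were called lower in the cerebellum. BARHL2 (9.38) and ZIC4 (6.96) were called higher, and the cerebellin CBLN2 was called lower (-7.46). CBLN4 (-1.30) and CALB2, calretinin (-1.31), were the other 2 called lower. Genes of the forebrain were called lower in 7 of 8 cases, with EMX2 at -10.41. Choroid plexus genes were called higher in 3 of 4 (OTX2 4.11, TTR 3.08, CLIC6 1.95), meningeal and fibroblast genes 1 higher and 1 lower of 9, and oligodendrocyte genes 3 lower of 6. The summed choroid plexus list ran from 3.3 to 913.5 CPM over the 5 cerebella, and its part in the members' levels was not tested.

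**Figure D2:**
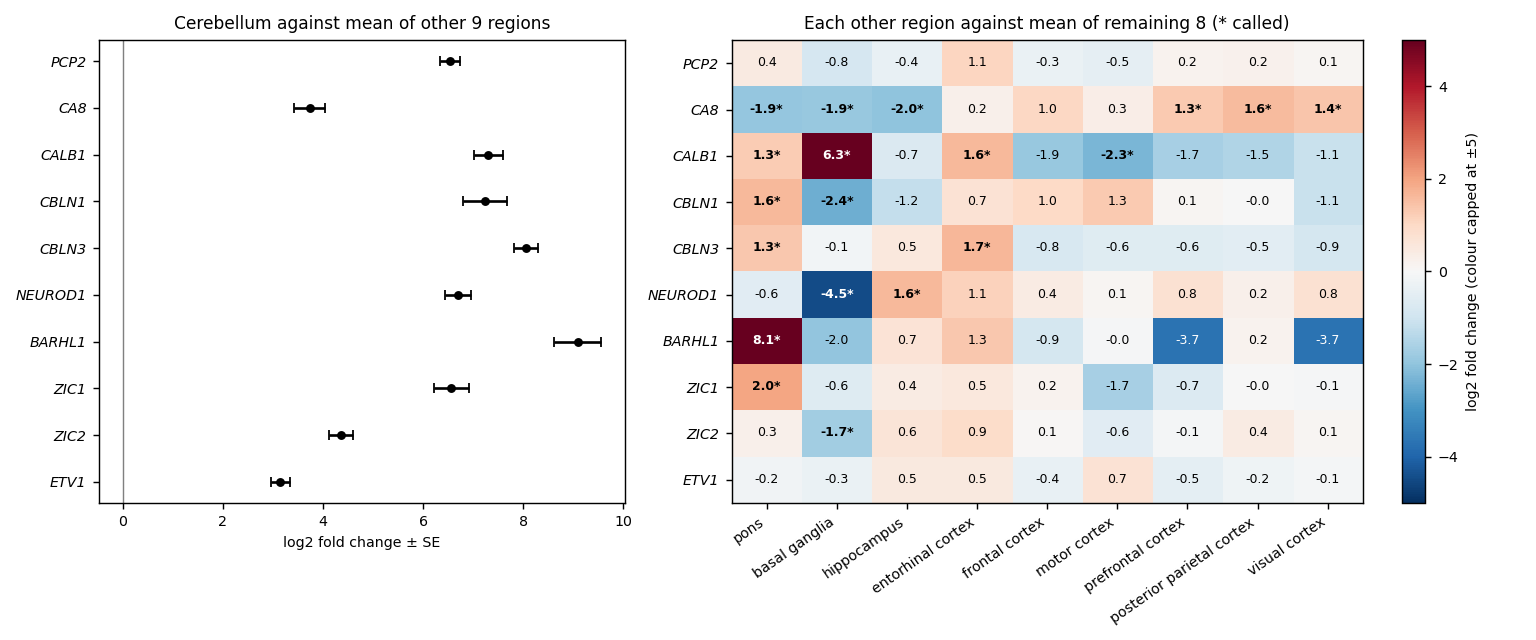
Log2 fold change of the 10 genes (rows): on the left, cerebellum against the mean of the other 9 regions, as points with SE bars; on the right, each other region (columns) against the mean of the remaining 8, as numbers over a colour scale capped at 5 on either side of 0, with an asterisk where called. All points on the left are above 3, and the highest cells on the right are CALB1 in basal ganglia (6.28) and BARHL1 in pons (8.12); for BARHL1 in prefrontal and visual cortex, where it had no count, the fitted value is no bound.

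With the cerebellum left out, each of the other 9 regions was set against the mean of the remaining 8 over 45 libraries and 20935 genes. Of the 90 combinations, 19 were called. In the basal ganglia 5 of 10 members were called, where 9.87% of genes were. CALB1, which is also known in projection neurons of the striatum, stood at 127.7, 107.5, 58.4, 78.9 and 70.4 CPM there (88.6 ± 28.4, SD, n = 5), apart from every library of the other 8 regions, which reached 18.7 CPM. The difference was 6.28 ± 0.33 log2 units (SE), with an adjusted p of 6.01e-19 by edgeR.

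The other 4 members called in the basal ganglia were lower there. NEUROD1 had a log2 fold change of -4.49 ± 0.66 (adjusted p of 1.17e-06 by edgeR), with 0 to 0.550 CPM in the 5 libraries. CBLN1 (-2.45), CA8 (-1.88) and ZIC2 (-1.74) were lower by smaller amounts. The CBLN1 call was lost on leaving out any single sheep (adjusted p of 0.0536 to 0.0708).

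In the pons 6 of 10 members were called, where 18.8% of genes were. BARHL1, also known in neurons of the brainstem that arise from the rhombic lip and project to the cerebellum, stood at 10.04, 1.97, 0.0730, 3.88 and 0.289 CPM in sheep 687, 688, 690, 694 and 699. Only the value of sheep 687 lay inside the cerebellum range, and the lowest, of sheep 690, was below the 0.198 CPM reached in the entorhinal cortex of sheep 687, the highest of the other 40 libraries. The difference was 8.12 ± 0.56 log2 units (SE), with an adjusted p of 3.09e-13 by edgeR. Its size depends on the prior count, since prefrontal and visual cortex had no count of BARHL1.

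ZIC1 in the pons stood at 58.2, 20.5, 12.0, 19.4 and 3.85 CPM, 1.97 ± 0.45 log2 units (SE) above the remaining regions, with an adjusted p of 0.00035 by edgeR. CBLN1 (1.64), CBLN3 (1.33) and CALB1 (1.29) were higher as well, and CA8 (-1.94) was lower. The CBLN1 call was lost without sheep 688 or 694 and the CALB1 call without sheep 690 or 694 (adjusted p of 0.0534 to 0.173). In the pons of sheep 687, which had the highest BARHL1 and ZIC1, FAT2 was at 4.79% of its cerebellum mean and GABRA6 at 0.159%. Beside these values, 6 of 14 other granule cell genes were called higher and 4 lower in the pons, where 8.89% of all genes were called higher and 9.96% lower. All 6 oligodendrocyte genes and 3 of 4 choroid plexus genes were higher, and all 8 forebrain genes were lower. The part of these cell types in the members' levels was not tested.

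NEUROD1, known also in granule neurons of the dentate gyrus, was higher in the hippocampus than in the remaining regions, one of 2 members called there, where 3.70% of genes were. It stood at 6.26, 5.40, 5.35, 12.7 and 1.61 CPM, 1.62 ± 0.38 log2 units (SE) above the remaining regions, with an adjusted p of 0.00583 by edgeR. Without sheep 694 the log2 fold change was 1.16 and the adjusted p 0.159. CA8 was the other member called, and was lower in the hippocampus (-2.03), a call lost without sheep 688, 690 or 694 (adjusted p of 0.0529 to 0.0836).

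CA8 was the member called higher in 3 neocortical regions. Its mean outside the cerebellum ran in the order posterior parietal (86.7 CPM), visual (75.6), prefrontal (72.6), frontal (60.9), motor (39.5) and entorhinal cortex (38.0), then basal ganglia (10.3), pons (9.94) and hippocampus (9.35). Neighbours in this order overlapped between libraries. It was called higher in posterior parietal (1.58), visual (1.37) and prefrontal cortex (1.31), in each the only member called, where 0.998%, 0.836% and 1.10% of genes were called. For the prefrontal and visual cortex the call was lost on leaving out any 1 of the 5 sheep (adjusted p of 0.0535 to 0.259), and for the posterior parietal cortex on leaving out sheep 688, 690 or 694 (0.0518 to 0.108).

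The remaining calls were few. CALB1 was lower in the motor cortex (-2.28, the only member called, where 0.583% of genes were), a call lost on leaving out any sheep but 687. No member was called in the frontal cortex, where 1.23% of genes were. PCP2 and ETV1 were called in none of the 9 regions. ETV1, which marks deep-layer cortical projection neurons too, ran from 17.3 to 139.7 CPM outside the cerebellum, with single high libraries in motor cortex (sheep 687, 139.7), hippocampus (690, 97.2) and entorhinal cortex (694, 87.4). BARHL1 had no count in any of the 10 libraries of prefrontal and visual cortex.

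ZIC1 and ZIC2 are known also in cells of the meninges, and outside the cerebellum their levels varied with those of the meningeal and fibroblast list. Over the 45 libraries, Pearson's r between log2 levels and the summed list was 0.76 for ZIC1 and 0.85 for ZIC2, given as a description over libraries that share animals and regions. It was 0.42 for CBLN3 and -0.20 to 0.30 for the other 7 members. With the summed choroid plexus list r was 0.64 for CBLN3, 0.54 for ZIC2, 0.48 for NEUROD1 and 0.41 for ZIC1, and -0.33 to 0.34 for the other 6. In the frontal cortex of sheep 699 the list summed to 501.2 CPM against 37.7 to 85.4 CPM in the other 4 sheep, and ZIC1 stood at 27.2 CPM against 1.27 to 4.61 CPM. In the posterior parietal cortex of sheep 694 the list summed to 413.5 CPM against 74.5 to 104.7 CPM, and ZIC2 stood at 45.7 CPM against 12.1 to 17.0 CPM. In the cerebellum, where both genes were highest, the list summed to 70.5 to 126.9 CPM. The part of meningeal or choroid plexus cells in these levels was not tested.

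In the entorhinal cortex CBLN3 (1.68, edgeR adjusted p of 0.0035) and CALB1 (1.60, adjusted p of 0.0285) were called higher, where 1.07% of genes were called. Both rested on the library of sheep 687: without that animal the log2 fold changes were 0.09 and -0.07. With the animal as a block the adjusted p-values were 0.065 and 0.235.

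The entorhinal library of sheep 687 was the highest of its 5 for 7 of 10 members. It was the highest for 12.4% of 17442 genes with a mean of at least 0.5 CPM. The library was picked beforehand for traces of the members, so the 7 of 10 is a description only and 12.4% is no background for it. CBLN1 stood at 42.1 CPM there against 0.705 to 6.27 CPM in the other 4, CBLN3 at 30.1 against 0.928 to 4.04 CPM and CALB1 at 18.7 against 0.245 to 3.48 CPM. PCP2 stood at 6.72 against 0.521 to 1.00 CPM, and NEUROD1 at 12.1 against 1.21 to 4.25 CPM. These levels were 7.02% of the cerebellum mean for PCP2, 6.40% for CALB1, 5.03% for NEUROD1, 4.22% for CBLN1, 3.85% for CBLN3, 3.29% for ZIC1 and 1.68% for BARHL1.

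CA8, ZIC2 and ETV1 were not highest in that library. Among other granule cell genes 7 of 15 were highest there, with GABRA6 at 10.6 CPM against 0 to 0.30 CPM (3.75% of its cerebellum mean) and FAT2 at 12.4 against 0.21 to 0.60 CPM (2.38%). Among other Purkinje cell genes 3 of 16 were highest. No forebrain gene of 8 was highest. Of 4 choroid plexus genes 3 were highest there, and that list summed to 244.4 CPM against 4.01 to 214.4 CPM in the other 4 sheep; no meningeal gene of 9 was highest.

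The hippocampus library of sheep 694 was likewise the highest of its 5 for 7 of 10 members, where 11.6% of genes were. It too was picked beforehand for traces of the members, so the 7 of 10 is a description only and 11.6% is no background for it. CBLN1 stood at 8.80 CPM against 0.497 to 2.74 CPM and CBLN3 at 7.70 against 2.25 to 3.94 CPM. PCP2 stood at 1.37 against 0.477 to 0.980 CPM. GABRA6 was at 1.85 CPM against 0 to 0.0469 CPM. As shares of the cerebellum mean PCP2 was at 1.43%, CBLN3 at 0.986%, CBLN1 at 0.882% and CALB1 at 0.837%, each below its share in the entorhinal library of sheep 687. ZIC2 was at 12.7%, NEUROD1 at 5.31% and ZIC1 at 3.61%, each above its share there, and BARHL1 had no count. In the same library all 4 choroid plexus genes and 4 of 9 meningeal genes were the highest of the 5. Whether cells or RNA of the cerebellum were present in either library was not tested.

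**Figure D3:**
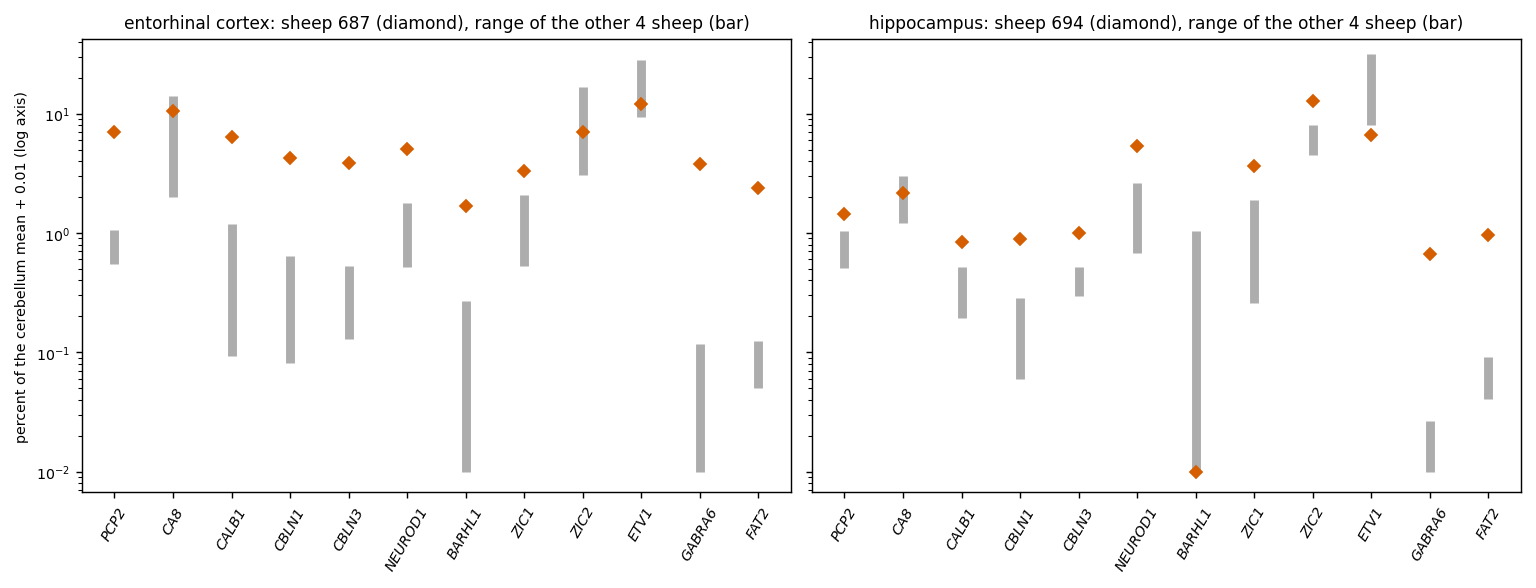
Level of each gene as a percent of its mean in the 5 cerebellum libraries, plus 0.01 and on a log axis, with GABRA6 and FAT2 added. Diamonds are the entorhinal library of sheep 687 (left) and the hippocampus library of sheep 694 (right), and bars the range of the other 4 sheep. The entorhinal library of sheep 687 lies above the other 4 for 7 members, at 1.68% to 7.02%, and the hippocampus library of sheep 694 for 7 members as well.

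In sheep sperm, 8 of 10 members were called lower than in the mean of the 10 brain regions, where 41.1% of the 21859 genes tested were called lower, and 1 was called higher, where 33.1% were. The median log2 fold change over the members was -3.99, the same with CALB1 at its bound, beside -0.42 over all genes. TMM scaling raised sperm values to 3.28 to 8.75 times their plain CPM, against 0.705 to 1.08 times in brain, so plain CPM and counts are given here. With upper quartile factors or DESeq2 the called genes of the whole table split 56.1% or 54.98% higher in place of 44.6%, and the median of all genes moved to 0.31 or 1.05.

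CALB1 had no count in the 5 sperm libraries, against a brain mean of 42.3 plain CPM, and was at least 2892-fold lower than in brain by a floor of 3 counts over the group. PCP2 had 3 counts in 1 library, 816-fold lower with a counting interval of 279 to 3955. Both folds are taken against plain brain means that the cerebellum raises. Over the 45 libraries outside the cerebellum the median was 0.814 plain CPM for CALB1 and 0.870 for PCP2, so these folds do not hold there. The fitted log2 fold change of PCP2, against the mean of the 10 regions on the log scale, was -4.23. NEUROD1 had 12 counts, ZIC1 26, ETV1 33, ZIC2 35, CA8 67 and CBLN1 103 over the 5 libraries. BARHL1 had 4 counts, all in sheep 694, and was not called (edgeR adjusted p of 0.186). Its fitted log2 fold change of 1.51, taken against a mean of log values over 10 regions of which prefrontal and visual cortex had no count, is opposite in sign to its mean levels, 0.0271 plain CPM in sperm and 1.68 plain CPM in brain. The CBLN1 call (-1.86, adjusted p of 0.0367) was lost with RLE factors (0.0662) and upper quartile factors (0.198), and on leaving out sheep 687 (0.108), 688 (0.128), 690 (0.0784) or 694 (0.0946). Without sheep 699 the log2 fold change was -3.52. Of the 10 members, limma voom with quality weights called only CBLN3 and ETV1.

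CBLN3 was the exception. It had 838, 2641, 120, 144 and 1010 counts in the sperm of sheep 687, 688, 690, 694 and 699, or 12.9, 53.7, 8.76, 4.87 and 21.3 plain CPM. The cerebella stood at 800.3 to 979.7 plain CPM and the other 45 brain libraries at 0.938 to 32.0 plain CPM, so that sperm lay below every cerebellum library and overlapped the other regions. The log2 fold change against the mean of the 10 regions on the log scale was 4.51 ± 0.27 (SE, edgeR adjusted p of 2.59e-21), or 4.93 relative to the median of all genes. The plain brain mean, which the cerebellum dominates, was 4.58 times the sperm mean.

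KHNYN, which is the neighbour of CBLN3 in the rat genome, was high in the same sheep sperm libraries. It stood at 116.6, 397.9, 201.8, 142.3 and 254.0 plain CPM, against 7.42 to 29.0 plain CPM in brain, and CBLN3 was at 3.42% to 13.5% of it. In the rat annotation Khnyn lies at chr15:33335290-33349553 of GRCr8, 861 bases from Cbln3 at chr15:33331919-33334428. In rat sperm Khnyn had a median of 19.4 plain CPM and CBLN3 ran from 0 to 0.257 plain CPM. The part of KHNYN transcripts in the sheep CBLN3 counts was not tested. Sheep positions were not used here.

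**Figure D4:**
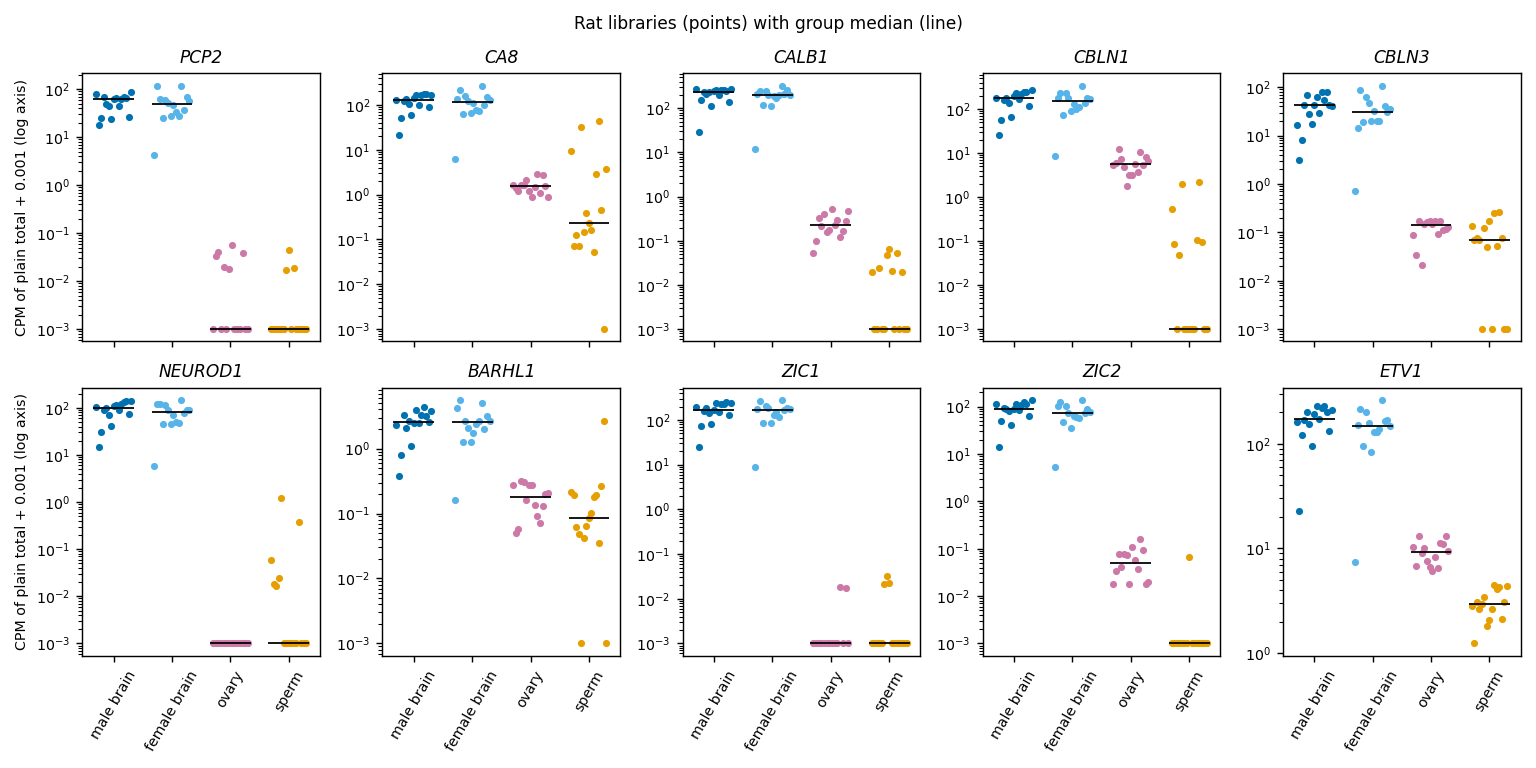
Plain CPM plus 0.001, on a log axis, of each gene (panels) in male and female whole brain, ovary and sperm of rats, 1 point per library, with the group median as a line. All ovary and sperm libraries of PCP2, ZIC1, ZIC2 and NEUROD1 lie below every brain library, while CA8 in sperm spreads from 0 to 43.9 plain CPM.

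In rats all 10 members were called lower in sperm than in male brain, where 31.5% of the 20480 genes tested were called lower. The log2 fold changes ran from -3.17 ± 0.54 (SE) for BARHL1 to -14.04 ± 0.37 for ZIC1, with a median of -8.98 beside -0.03 over all genes. PCP2 and ZIC1 had 4 counts each over the 15 sperm libraries, ZIC2 had 3 and CALB1 13. The Purkinje cell members PCP2 and CALB1 were thus close to the floor, at -12.51 ± 0.46 and -12.97 ± 0.36. For 8 of 10 members the sperm and brain ranges did not overlap. Such overlap was not counted over all genes, so these ranges describe the members only.

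The 2 that overlapped were CA8 and BARHL1. CA8 in sperm ran from 0 through a median of 0.236 to 43.9 plain CPM, against 21.0 to 177.8 plain CPM in male brain. It was high in sperm 14 (43.9), sperm 7 (31.9) and sperm 3 (9.47), and these libraries also had the 3 highest values of CBLN1 (2.18, 1.95 and 0.538 plain CPM). They had the 3 highest values of the late spermatid gene Prm1 too, 4543, 5899 and 2295 plain CPM against 10.7 to 475.1 in the other 12, and its part in the CA8 values was not tested. BARHL1 reached 2.64 plain CPM in sperm 16, one of a pair of sperm libraries (16 and 17) with few genes at low counts, 375 and 358 genes at 1 to 5 counts against 663 to 6339 in the other 13. Without those libraries all 10 members were still called lower. ETV1 was low but present in every sperm library, at 1.23 to 4.48 plain CPM.

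All 10 members were also called lower in the ovary than in female brain, where 29.2% of the 20801 genes tested were called lower. The median log2 fold change was -9.14, and the same with NEUROD1 at its bound, beside 0.02 over all genes. NEUROD1 had no count in 14 ovaries and was at least 20449-fold lower by a floor of 3 counts over the group. The ranges of ovary and brain did not overlap for any of the 10 on TMM-scaled CPM, and for 7 of 10 on plain CPM, where brain 1 was low. Here too no share over all genes was counted, so the ranges describe the members only. ZIC1 had 2 counts, with a counting interval of 17018- to 507610-fold lower, and PCP2 had 11.

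ETV1 and CBLN1 kept a measurable level in the ovary. ETV1 stood at 9.24 ± 2.36 plain CPM (SD, n = 14), with a range of 6.09 to 13.1, with a log2 fold change of -4.24 ± 0.14 (SE) against brain. CBLN1 stood at 6.00 ± 2.95 plain CPM (SD, n = 14), with a range of 1.75 to 12.6, with a log2 fold change of -4.93 ± 0.25. CA8 followed at 1.59 ± 0.62 plain CPM, ranging from 0.89 to 2.94. CALB1 (0.251), BARHL1 (0.181), CBLN3 (0.124) and ZIC2 (0.0585) averaged under 1 plain CPM. GABRA6 had no count in ovary or sperm.

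Between the sexes, no member was called in whole brain, where 0.0583% of 20570 genes (12 genes) were called. No member had an unadjusted p below 0.05 by edgeR, and DESeq2 and limma voom called 0 as well. The log2 fold changes, male over female, ran from -0.22 ± 0.18 (SE) for BARHL1 to 0.02 ± 0.13 for ZIC2, with adjusted p from 0.728 to 0.999. A p above the threshold does not show that the levels were equal. Male brains averaged 137.7 ± 42.7 CPM of CBLN1 (SD, n = 15) and female brains 145.1 ± 49.2 CPM (SD, n = 14).

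Single rat brains differed widely. CBLN3 ran from 6.06 through a median of 31.6 to 83.0 CPM over the 29 brains, a 13.7-fold range. PCP2 ran from 19.1 through 47.1 to 136.4 CPM (7.12-fold) and BARHL1 from 0.608 through 2.25 to 4.21 CPM (6.93-fold). CBLN1 ran from 44.2 through 134.7 to 262.1 CPM, CA8 from 39.6 through 111.3 to 208.0 CPM, and NEUROD1 from 22.9 through 80.6 to 113.1 CPM.

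The narrowest ranges were those of CALB1 (117.8, 182.8 and 251.2 CPM as lowest, median and highest, 2.13-fold) and ETV1 (92.6, 129.96 and 201.8 CPM, 2.18-fold). ZIC1 spanned 3.87-fold and ZIC2 2.82-fold. Male rat 5 had the lowest value of all 10 members, and female rat 26 the highest of 7. In brains 1 and 4 the ribosomal RNA entry Rn45s took 29.9% and 28.4% of counts, against at most 18.7% in the others, and without them the PCP2 range was 5.21-fold.

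The members varied together over rat brains. All 45 pairs had a positive Pearson's r of log2(CPM + 1), from 0.226 to 0.956 with a median of 0.811, and Spearman's rho ran from 0.146 to 0.954. After adjustment over the 45 pairs, 44 passed 0.05 (permutation test, two-sided, 100000 resamples). The highest was CBLN1 with NEUROD1 (r of 0.956, adjusted permutation p of 1.5e-05), both genes of granule cells. The pair that did not pass was PCP2 with CBLN3 (r of 0.226, adjusted permutation p of 0.239). No share over all gene pairs was counted, here or within the sexes, so the counts describe the members only.

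Within the sexes 42 of 45 pairs passed in males (median r of 0.853) and 42 of 45 in females (median r of 0.780). Leaving out the 2 brains farthest from the median gave r from 0.131 to 0.935 with a median of 0.762, positive in all 45 pairs, and 41 of 45 stayed at 0.5 or above. CBLN3 had the lowest median r with the other 9 members, 0.619, with an r of 0.828 to ETV1, 0.506 to BARHL1 and 0.455 to CALB1. In rat brain the granule cell gene Gabra6 had an r of 0.71 to 0.98 with the members. The share of each brain that was cerebellum was not recorded in the labels, and its part in these correlations was not tested.

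**Figure D5:**
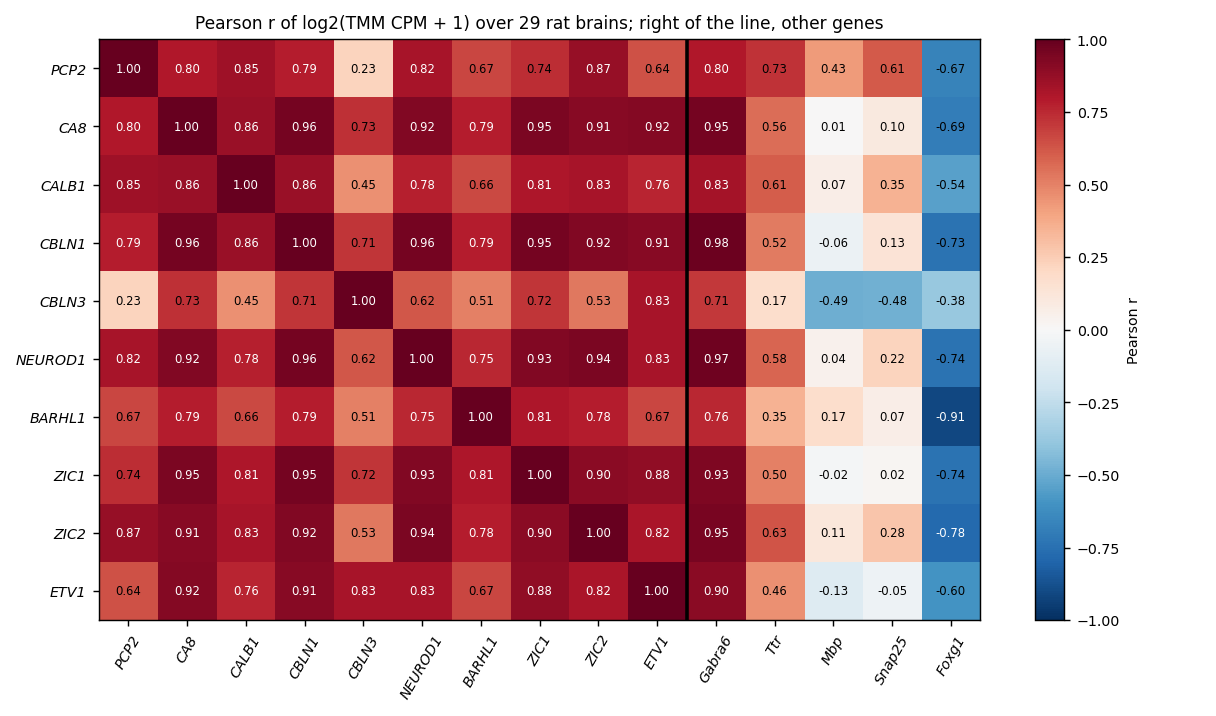
Pearson's r of log2(TMM CPM + 1) between each pair of the 10 genes over 29 rat whole brains, as a matrix of values. All 45 pairs are positive; CBLN1 with NEUROD1 is highest at 0.956 and PCP2 with CBLN3 lowest at 0.226.

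The genes whose levels were most like those of the members were named by Pearson's r over the 50 sheep brain libraries (13266 genes searched) and over the 29 rat brains (14196 genes searched), with no p since the sheep values mainly set cerebellum against the rest. In sheep PCP2 was closest to GNG13 (0.988), UNC45B and GABRA6, and CBLN3 to GABRA6 (0.992), BARHL2 and CCN5. CBLN1 was closest to NXPH3 (0.905), CA8 to SEL1L3 (0.908), CALB1 to SCGN (0.956) and NEUROD1 to MELTF (0.943). ZIC1 was closest to its neighbour and relative ZIC4 (0.987) and ZIC2 to ZIC5 (0.980). BARHL1 was closest to UNCX (0.943) and ETV1 to MEGF11 (0.934).

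Over rat brains the closest gene to CBLN1 was Gabra6 (0.979), which was the closest to NEUROD1 as well (0.969). CA8 was closest to Ppp1r17 (0.974), a Purkinje cell gene, as was CALB1 (0.877). ZIC1 was closest to En2 (0.966), ZIC2 to Cnpy1 (0.964) and ETV1 to Trmt9b (0.945). PCP2 was closest to Apela (0.969), CBLN3 to Fzd7 (0.95) and BARHL1 to Epn3 (0.853).

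In the rat annotation (GRCr8) 3 members share bases with another gene, Pcp2 at chr12:6479554-6481550 with Pet100, Car8 at chr5:26102767-26199819 with LOC134478931 and Zic1 at chr8:100785282-100797716 with Zic4. How reads in shared bases were counted is not given in the sources used here, so the values of these 3 are uncertain to that extent. The other 7 are Cbln1 at chr19:35782151-35785960, Cbln3 and Neurod1 as above, Calb1 at chr5:34172612-34199555, Barhl1 at chr3:32639283-32646605, Zic2 at chr15:105982711-105988167 and Etv1 at chr6:61316836-61408985.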

How the data were processed

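Stranded mRNA libraries were sequenced as 150-base paired reads. The submitters' description of the study design names Trimmomatic v0.39 (trimming), STAR v2.7.5a (alignment), Rsubread v2.20.0 (counting) and the genome builds ARS-UI_Ramb_v3.0 for sheep and GRCr8 for rat. Their processing notes name STAR and DESeq2 without a version. The authors deposited raw counts per gene. How strand and multimapping reads were handled is not given in the sources used here. Sheep and rat used different extraction and library kits, so species were not compared.

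The test of the counts was that of edgeR 4.0.16 under R 4.3.3 (TMM factors, filterByExpr, prior count of 0.125, Benjamini-Hochberg over all genes), after tests on simulated data. SE is the absolute log2 fold change over the square root of F. Alternatives were RLE and upper quartile factors, no filter, DESeq2 1.42.0, limma 3.58.1 voom with quality weights, the animal as a block and left-out libraries. The members and lists were chosen with earlier results of these data known. Named genes were the members, up to 4 called genes per list and comparison with the largest fold change, list genes not called, and up to 3 genes of highest correlation per member; genes named for the trace libraries and as neighbours of members were chosen after their values were seen. Same-numbered sheep libraries come from the same animal by their labels; their deviations had a median correlation of 0.185, against -0.041 between animals. Some genes of the lists are counted but not reported here by name.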

Additional observations from a re-analysis of the deposited data

Results flagged for a closer look

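In 23 of 107 groups of 5 sheep libraries, 1 library lay far from the other 4, the gap to its nearest neighbour exceeding 0.71 of the group's range. Chance flags about 1 in 20 groups only where values are normally distributed. A group with counts in only 1 library is always flagged, as for BARHL1 in basal ganglia and PCP2 and BARHL1 in sperm. The rate of 1 in 20 is therefore no background for the groups here. The members' values within a library are also not independent of each other. Values are TMM-scaled CPM.

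The entorhinal cortex of sheep 687 stood out for 6 members, PCP2 at 6.72, CBLN1 at 42.1, CBLN3 at 30.1, CALB1 at 18.7, NEUROD1 at 12.1 and BARHL1 at 0.198 CPM. The hippocampus of sheep 694 stood out for CBLN1 at 8.80 CPM. It and the entorhinal library of sheep 687 were picked beforehand for traces of the members. In the visual cortex, sheep 687 stood out for CBLN1 at 9.04 CPM.

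The ZIC genes stood out in the frontal cortex of sheep 699 (ZIC1 at 27.2 and ZIC2 at 45.4 CPM) and in the posterior parietal cortex of sheep 694 (ZIC1 at 18.1 and ZIC2 at 45.7 CPM). In the motor cortex of sheep 687 ZIC2 stood at 21.0 CPM, in a library where ETV1, at 139.7 CPM, was also far above the others. ETV1 stood out in the entorhinal cortex of sheep 694 as well, at 87.4 CPM.

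In the cerebellum only CBLN3 of sheep 690 was apart from the rest, on the low side, at 705.8 CPM. Near the floor, NEUROD1 was apart at 0.550 CPM and BARHL1 at 0.0183 CPM in the basal ganglia of sheep 688, and BARHL1 at 0.121 CPM in the hippocampus of sheep 699. In sperm, sheep 688 stood out for PCP2 at 0.243 CPM, sheep 699 for CBLN1 at 8.88 CPM, and sheep 694 for BARHL1 at 0.444 and ETV1 at 3.22 CPM.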

How the results depend on the processing

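The 10 calls of the cerebellum against the other 9 regions, of rat sperm and of ovary kept their direction and their call under every alternative run that gave an adjusted p; DESeq2 gave none for CBLN3 in the cerebellum comparisons, which left 9 of 10 and 80 of 90 calls, BARHL1 against pons (adjusted p of 0.226) being the other member not called. With the replicate block (the animal), the counts of member calls were 10 in the cerebellum, 90 against single regions, 17 of 90 over the other regions in place of 19, 9 in sheep sperm, 10 in rat sperm and 10 in ovary. No paired analysis was possible for the sexes because males and females share no numbers. Leaving out each sheep in turn gave 11 to 14 calls over the other regions, 11 without sheep 690 or 694. In sheep sperm limma voom with quality weights called 2 of 10. CALB1 in the entorhinal cortex ranged from -0.065 (without sheep 687) to 1.93 (without 688) and turned to -0.043 without its library and the hippocampus library of sheep 694. BARHL1 in sheep sperm ranged from -4.22 without sheep 694, whose library held its 4 counts, to 2.12 without 687. Between the sexes ZIC2 turned to -0.016 without rat brains 1 and 4, an alternative chosen after seeing the data, as was leaving out rat sperm 16 and 17. ETV1 turned to 0.0070 with RLE factors, 0.011 with upper quartile factors, 0.0063 with no filter and 0.0065 with DESeq2; none of these was called. The cause was not tested for the voom count or the sign changes between the sexes. Depth limits what can be said of BARHL1 outside the cerebellum and pons and of members with few counts in sperm and ovary, and intervals and floors cover counting error only.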
